A study of Mus musculus with 81 samples.

Results

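Among the 27 libraries of CA1 pyramidal neurons (CA1 PNs) in this series, 10 carried high levels of genes that mark the neighbouring CA2 field and 17 did not. The members were chosen by the measured values themselves. In each CA1 library the mean of log2(CPM + 1) was taken over 7 CA2 markers (Ccdc3, Cacng5, Map3k15, Necab2, Pcp4, Rgs14 and Amigo2), where CPM is a gene's count scaled to the library's total. Libraries with a mean over 4.5 are called CA2-rich and the others CA2-poor. The series holds 81 libraries, of which 26 are of CA3 PNs and 28 of dentate gyrus granule cells (DGCs). All came from male mice at 6 MO, by laser capture microdissection of neurons recognised by eye after Nissl staining in rostral hippocampal sections.

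Mice were trisomic Ts65Dn (Ts), which carry an extra freely segregating minichromosome with distal mouse chromosome 16 (Mmu16) and proximal chromosome 17 (Mmu17) sequence, or their disomic (2N) littermates, on a mixed C57Bl/6J Eicher and C3H/HeSnJ background. Their dams were kept on a choline normal diet (ChN, 1.1 g/kg choline) or a choline supplemented diet (ChP, 5.0 g/kg choline) through pregnancy and nursing, and the offspring then had the control diet. Every library is bulk RNA of a captured population of 1 mouse. The class of a CA1 library is not a label of the study.

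CA2 is a narrow band of pyramidal cells between CA3 and CA1. Its neurons are known for a role in social memory, for receptors of vasopressin and oxytocin, for a coat of perineuronal net, and for synapses from CA3 that resist long-term potentiation, which has been tied to strong calcium buffering and extrusion and to Rgs14, a signalling scaffold. Amigo2 is a cell adhesion protein, Pcp4 binds calmodulin, Necab2 binds calcium, Cacng5 is an auxiliary subunit of AMPA receptors, Map3k15 is a kinase and Ccdc3 is a secreted protein.

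Several libraries stood apart from their labels. The CA1 libraries of mouse 17-21 and mouse 16-272 held almost no transcript of the CA1 markers Wfs1 (6.31 and 8.34 CPM) and Fibcd1 (1.05 and 0.521 CPM), and the library of mouse 15-336 held little (42.9 and 17.4 CPM), against 361 to 853 CPM of Wfs1 and 375 to 502 CPM of Fibcd1 in CA2-poor libraries. The mean log2(CPM + 1) of 63 Mmu16 genes checks the genotype label. It was 5.48 in the CA1 library of mouse 17-154, which is labelled 2N, whereas the CA3 and dentate libraries of that mouse had 4.80 and 5.06 and the other 2N CA1 libraries ran no higher than 5.03. It was 5.12 in the CA1 library of mouse 16-272, labelled Ts, against 5.40 to 5.57 in the other Ts CA1 libraries and 5.58 in the dentate library of that mouse. All 4 of these CA1 libraries are CA2-rich. The CA3 library of mouse 15-145 is labelled Ts and the mouse's other libraries 2N. Its Mmu16 mean was 4.90, the highest of the CA3 libraries taken as 2N (lowest 4.71), against 5.27 to 5.44 in those taken as Ts. This library was taken as 2N. Mice 15-198 and 16-272 had no CA3 library. The total expected count of a CA1 library ran from 645483 to 1918846.

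The CA2 marker mean separated the CA1 libraries into groups with a gap between them. It ran from 1.08 to 3.06 in the CA2-poor libraries (median 1.75) and from 5.68 to 7.78 in the CA2-rich libraries (median 7.14). The libraries on either side of the threshold were those of mouse 16-273 at 3.06 and mouse 15-198 at 5.68, which are 2.62 apart. Thresholds of 4.0 and 5.0, and a mean without Pcp4, gave the same classes. Since these genes made the classes, their levels are a description.

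**Figure D1:**
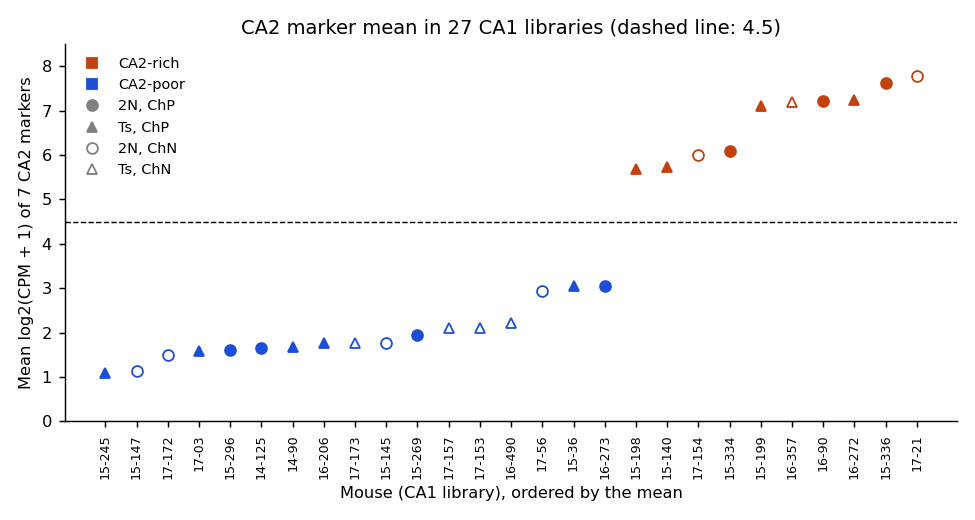
Mean log2(CPM + 1) of 7 CA2 markers (vertical axis) in each of the 27 CA1 libraries, ordered by the mean and named by mouse, with colour for the class, shape for the genotype and filling for the diet of the dam. The 17 CA2-poor libraries end at 3.06 and the 10 CA2-rich libraries start at 5.68, with no library near the dashed line at 4.5, and both genotypes and both diets lie on either side.

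None of the 7 markers overlapped between the classes. Amigo2 was at 0 to 17.5 CPM in CA2-poor libraries (median 1.27) and at 80.8 to 393 CPM in CA2-rich libraries (median 246). Pcp4 ran from 0 to 18.6 CPM (median 1.27) and from 97.6 to 305 CPM (median 202). Ccdc3 ran from 0 to 5.97 CPM and from 37.9 to 196 CPM, Cacng5 from 0 to 3.10 CPM and from 18.5 to 143 CPM, Necab2 from 0 to 12.4 CPM and from 43.7 to 261 CPM, and Map3k15 from 0 to 3.10 CPM and from 10.1 to 58.9 CPM. Rgs14 was the marker with counts in every CA2-poor library, at 66.3 to 123 CPM, and reached 201 to 715 CPM in the CA2-rich ones. A level of 3 counts is worth 1.56 to 4.65 CPM at these depths, so the levels of Map3k15 and Cacng5 in CA2-poor libraries are near the limit of detection. In bulk libraries such as these, more captured cells of a type and more of its RNA per cell cannot be told apart.

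The 10 CA2-rich libraries were not alike. Those of mice 15-198, 15-140, 17-154 and 15-334 had CA2 marker means of 5.68, 5.74, 6.00 and 6.10. The other 6, of mice 15-199, 16-357, 16-90, 16-272, 15-336 and 17-21, had 7.10, 7.18, 7.23, 7.25, 7.61 and 7.78. The mean of 7 CA1 markers, among them Wfs1, Fibcd1, Spink8, Mpped1, Pou3f1 and Man1a, was 7.38 to 7.80 in CA2-poor libraries. It was 6.85 to 6.96 in the 4 CA2-rich libraries with the lower CA2 marker means, then 5.76 in the library of mouse 15-199, 6.16 in that of mouse 16-357 and 6.40 in that of mouse 16-90. It was 4.39 in the library of mouse 15-336, 2.34 in that of mouse 16-272 and 2.28 in that of mouse 17-21, so libraries with nearly equal CA2 marker means (7.23 in mouse 16-90 and 7.25 in mouse 16-272) had very different CA1 marker levels. Over the 10 CA2-rich libraries the CA1 and CA2 marker means had a Pearson r of -0.75 and a Spearman rho of -0.89, and over the 17 CA2-poor libraries an r of -0.14. Both means come from the same libraries and the same totals.

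The mean of 7 CA3 markers (Bok, Iyd, Grik4, Cpne4, Spock1, Cdh24 and Coch) was also higher in every CA2-rich library, at 3.58 to 5.88 against 1.06 to 2.95. These genes did not act as a block. Cpne4, a calcium-dependent membrane binding protein, and Spock1, a proteoglycan, were far higher in every CA2-rich library. Cpne4 had 93.2 to 421 CPM in CA2-rich and 0 to 14.3 CPM in CA2-poor libraries, and Spock1 177 to 746 CPM and 11.2 to 52.5 CPM. Iyd, which was at a median of 68.2 CPM in CA3 libraries, had 33.4 CPM in the CA1 library of mouse 16-272, 12.1 CPM in that of mouse 15-199, 5.26 CPM or less in the other 8 CA2-rich libraries and 1.19 CPM or less in the CA2-poor ones. Bok, at a median of 95.2 CPM in CA3 libraries, had 53.2 CPM in the CA1 library of mouse 16-272 and 29.0 CPM in that of mouse 15-336, but 4.21 CPM in that of mouse 17-21, whose CA2 marker mean was the highest. The libraries of mouse 17-21 and mouse 16-272 thus differed in these CA3 markers and shared low levels of the CA1 markers, except Spink8. Spink8 was at 61.0 CPM in mouse 17-21 and 34.4 CPM in mouse 16-272, against 13.9 to 58.9 CPM in CA2-poor libraries.

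**Figure D2:**
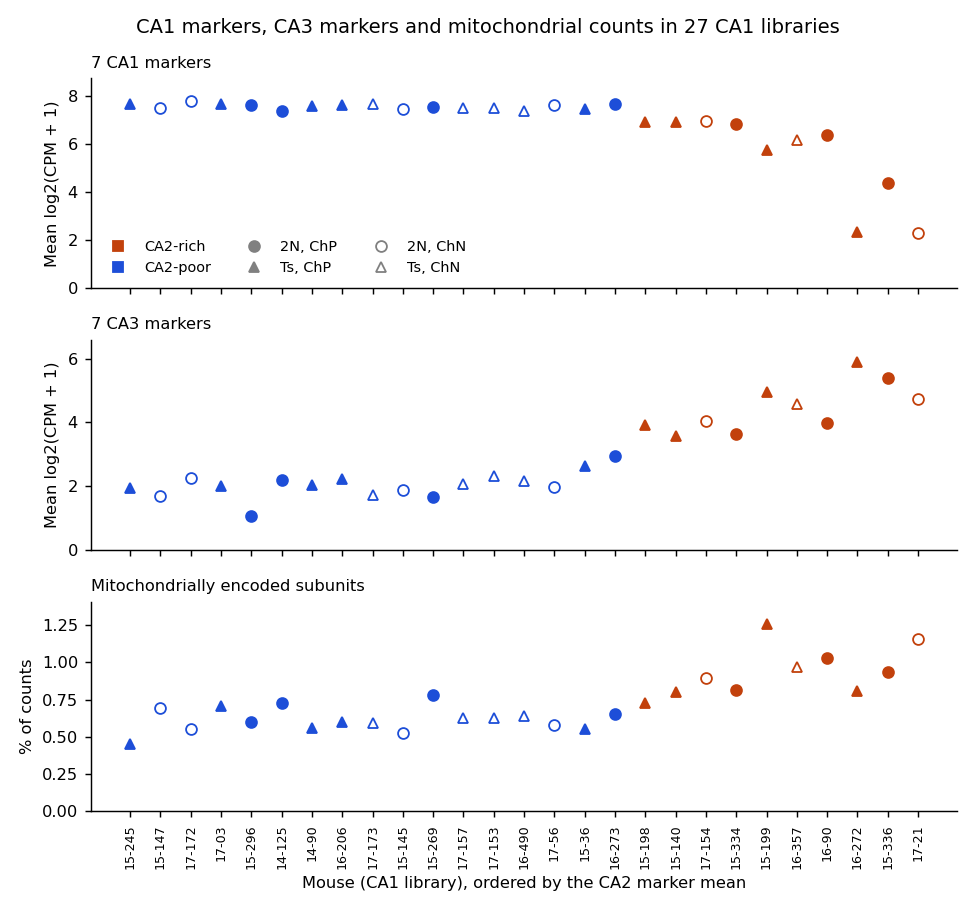
Mean log2(CPM + 1) of 7 CA1 markers (top), mean log2(CPM + 1) of 7 CA3 markers (middle) and percentage of the counts from mitochondrially encoded subunits (bottom) in the 27 CA1 libraries, in the order of the CA2 marker mean, with the colours, shapes and fillings for class, genotype and diet given in the key. CA1 markers stay between 7.38 and 7.80 in CA2-poor libraries and drop to 2.28 in CA2-rich ones, CA3 markers rise from at most 2.95 to at least 3.58, and the mitochondrial share rises from 0.451 to 0.779% to 0.730 to 1.26%.

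Markers of other cell types moved with the class in part. The summed level of 8 interneuron markers was 147 to 242 CPM in CA2-poor and 236 to 443 CPM in CA2-rich libraries, and that of 7 oligodendrocyte markers was 109 to 220 CPM and 165 to 319 CPM. The 5 astrocyte markers (112 to 174 CPM and 112 to 166 CPM) and the 5 microglia markers (5.42 to 26.3 CPM and 10.1 to 27.9 CPM) overlapped over most of their ranges, as did 5 vascular markers (12.2 to 32.2 CPM and 16.1 to 37.1 CPM). The 5 dentate granule cell markers summed to 6.17 to 20.3 CPM and 9.90 to 21.7 CPM, and the choroid plexus genes Ttr and Folr1 were at 0 in every CA1 library. From 12.1 to 16.9% of the counts of a CA2-poor library and from 12.2 to 17.5% of those of a CA2-rich one came from its 10 most abundant genes. The part of these shares in the differences below was not tested.

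Neither label of the study differed detectably between the classes. There were 5 CA2-rich libraries among 14 Ts and 5 among 13 2N (Fisher's exact test, p = 1, odds ratio 0.889), and 7 among 16 ChP and 3 among 11 ChN (p = 0.448, odds ratio 2.07). The mean over the markers without Pcp4 was 3.61 ± 2.27 in Ts (SD, n = 14) and 3.89 ± 2.53 in 2N CA1 libraries (SD, n = 13), with p = 0.744 in a permutation test. Pcp4 was left out there because it lies at chr16:96268806-96326997 (GRCm39, plus strand), between the first and the last of the Mmu16 genes that the study lists as triplicated. Without the libraries of mice 17-21 and 17-154 the sign of this difference turned (a difference of 0.24, permutation test, p = 0.825). The mean over all 7 markers was 4.01 ± 2.53 in ChP (SD, n = 16) and 3.31 ± 2.44 in ChN libraries (SD, n = 11), with p = 0.496 in a permutation test. Log10 total counts were 6.09 ± 0.128 in CA2-rich (SD, n = 10) and 6.01 ± 0.121 in CA2-poor libraries (SD, n = 17), with p = 0.0970 in a permutation test.

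The class was the main axis of variation among the CA1 libraries. The first principal component of the 1000 most variable genes, from which the 7 markers were left out, held 42.4% of their variance, against 5.10% for the second. Its correlation with the CA2 marker mean over the 27 libraries was 0.95, with both taken from the same libraries. All CA2-rich libraries lay on one side of it and all CA2-poor libraries on the other.

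With genotype and diet as covariates, 2202 of 16218 tested genes were higher in CA2-rich libraries (13.6%) and 1785 were lower (11%) at an adjusted p under 0.05, or 24.6% in all. The fit was edgeR's quasi-likelihood test with Benjamini-Hochberg adjustment, and the 7 markers were not among the genes. The libraries were divided by genes measured in these same libraries, so a call says how closely a gene follows the division and is no independent test of it. The log2 fold change (LFC, CA2-rich minus CA2-poor) was over 1 for 699 of the higher genes and under -1 for 430 of the lower ones. The median LFC of all tested genes was -0.02. With library totals in place of TMM scaling it was -0.12, and the split of calls turned from 55.2% higher to 37.2% higher (1633 higher and 2758 lower), so counts of small changes in a direction depend on the scaling. Without the libraries of mice 17-21, 16-272 and 15-336, which had little Wfs1 and Fibcd1, 1569 genes were higher (9.92%) and 942 lower (5.96%) of 15817 tested.

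The genes with the largest LFC among those with a mean of at least 10 CPM in the class where they were higher were chosen on this contrast and are given as a description. Most were at or near 0 in CA2-poor libraries. Of the 15 highest, 14 had every CA2-rich library above every CA2-poor library, as had 1.08% of all tested genes. The choice by LFC favours this order, so the comparison is no test. The filter asks for over 0.1 CPM in at least 10 libraries, and the CA2-rich class holds 10. Genes at 0 in most CA2-poor libraries, such as Tmem215 and Avpr1b, were thus tested only because of their level in CA2-rich ones. Tmem215, a transmembrane protein, had 5.15 to 36.6 CPM in CA2-rich libraries (median 20.1), and in CA2-poor libraries it was at 0 in 16 of 17 and at 0.933 CPM in the other. Its LFC was 7.10 ± 0.45 (SE), a value that depends on the prior count because of the zeros. Tmem215 was at medians of 10.6 CPM in CA3 and 0.849 CPM in dentate libraries. Cpne4 had an LFC of 6.71 ± 0.43, with medians of 294 CPM in CA3 and 87.6 CPM in dentate libraries. Avpr1b, the vasopressin 1b receptor, had 4.04 to 34.7 CPM in CA2-rich libraries (median 15.5) and at most 1.03 CPM in CA2-poor ones, where 15 of 17 libraries were at 0 (LFC 6.36 ± 0.45). Avpr1b was at a median of 0 CPM in both CA3 and dentate libraries.

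Other genes of this set differed in their level in CA3 libraries. Nrip3 had 184 to 730 CPM in CA2-rich and 6.36 to 34.1 CPM in CA2-poor libraries (LFC 4.91 ± 0.27). Its medians were 353 CPM in CA3 and 67.1 CPM in dentate libraries. Il16, an interleukin precursor, had 46.3 to 305 CPM and 0.828 to 11.9 CPM (LFC 4.67 ± 0.34), with medians of 111 CPM in CA3 and 102 CPM in dentate libraries. Mctp1, a calcium-binding membrane protein of the synapse, had 54.6 to 190 CPM and 0 to 14.7 CPM (LFC 4.60 ± 0.34), with medians of 138 CPM in CA3 and 148 CPM in dentate libraries. Cd109 (LFC 5.11 ± 0.69), Ccbe1 (4.73 ± 0.44) and Socs2 (5.16 ± 0.57), a suppressor of cytokine signalling, were also at higher medians in CA3 libraries (80.3, 72.5 and 48.6 CPM) than in CA2-rich CA1 libraries (7.85, 23.4 and 9.78 CPM). Cd109 was highest in the CA1 libraries of mice 16-272 and 15-336, at 47.4 and 41.8 CPM.

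Others had lower medians in CA3 than in CA2-rich CA1 libraries. Arg2, the mitochondrial arginase, had 5.38 to 36.8 CPM in CA2-rich and at most 1.55 CPM in CA2-poor libraries (LFC 5.18 ± 0.38), and was at a median of 0 in CA3 libraries. Ntf3, the growth factor neurotrophin-3, had 8.74 to 40.0 CPM and at most 3.18 CPM (LFC 5.05 ± 0.38), with a CA3 median of 0 and a dentate median of 24.3 CPM. Htr7, a serotonin receptor, had 10.2 to 35.8 CPM and at most 2.54 CPM (LFC 4.93 ± 0.33), with a CA3 median of 2.04 CPM. Fhip1a (LFC 5.46 ± 0.34) and Syndig1l (4.81 ± 0.38) had CA3 medians of 3.13 and 1.10 CPM against 26.3 and 13.0 CPM in CA2-rich CA1 libraries. Their dentate medians were 39.2 and 2.68 CPM. Shisa2 (LFC 5.39 ± 0.44) was at nearly the same median in both, 11.0 CPM in CA3 and 11.3 CPM in CA2-rich CA1 libraries.

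Genes lower in CA2-rich libraries differed by less. The largest was Adgrl2, the adhesion receptor latrophilin-2, which had 26.3 to 275 CPM in CA2-poor libraries (median 101) and 1.58 to 10.8 CPM in CA2-rich ones (median 6.29), with an LFC of -4.30 ± 0.46. Every CA2-rich library was below every CA2-poor one, also those 4 that kept most of their CA1 markers. Adgrl2 was at medians of 1.16 CPM in CA3 and 1.41 CPM in dentate libraries. Ccn3, a matricellular protein, had 51.1 to 202 CPM and 2.08 to 38.1 CPM (LFC -2.54 ± 0.30), C1ql3, a secreted synaptic protein, had 40.7 to 119 CPM and 0 to 39.3 CPM (LFC -2.22 ± 0.34), and Ndst3, a heparan sulfate modifying enzyme, had 42.0 to 133 CPM and 0 to 45.9 CPM (LFC -2.0 ± 0.36).

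For Ccn3 and C1ql3 the lowest CA2-rich libraries were again those of mice 16-272, 17-21 and 15-336 (2.08, 4.21 and 3.48 CPM of Ccn3, and 0, 0 and 5.80 CPM of C1ql3). The rest of the 15 were Ldb2, Man1a, Gm37443, Adamts10, Cnih3, Gm20605, 9130024F11Rik, Khdrbs2, Egr2, Pcdhb2 and Inhbb, with LFC from -2.30 to -1.71. Of the 15, 7 had every CA2-rich library below every CA2-poor library, as had 0.469% of all tested genes. The choice by LFC favours this order too. Cnih3, Egr2 and Pcdhb2 overlapped most, with 3, 2 and 4 CA2-rich libraries below the lowest CA2-poor library.

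**Figure D3:**
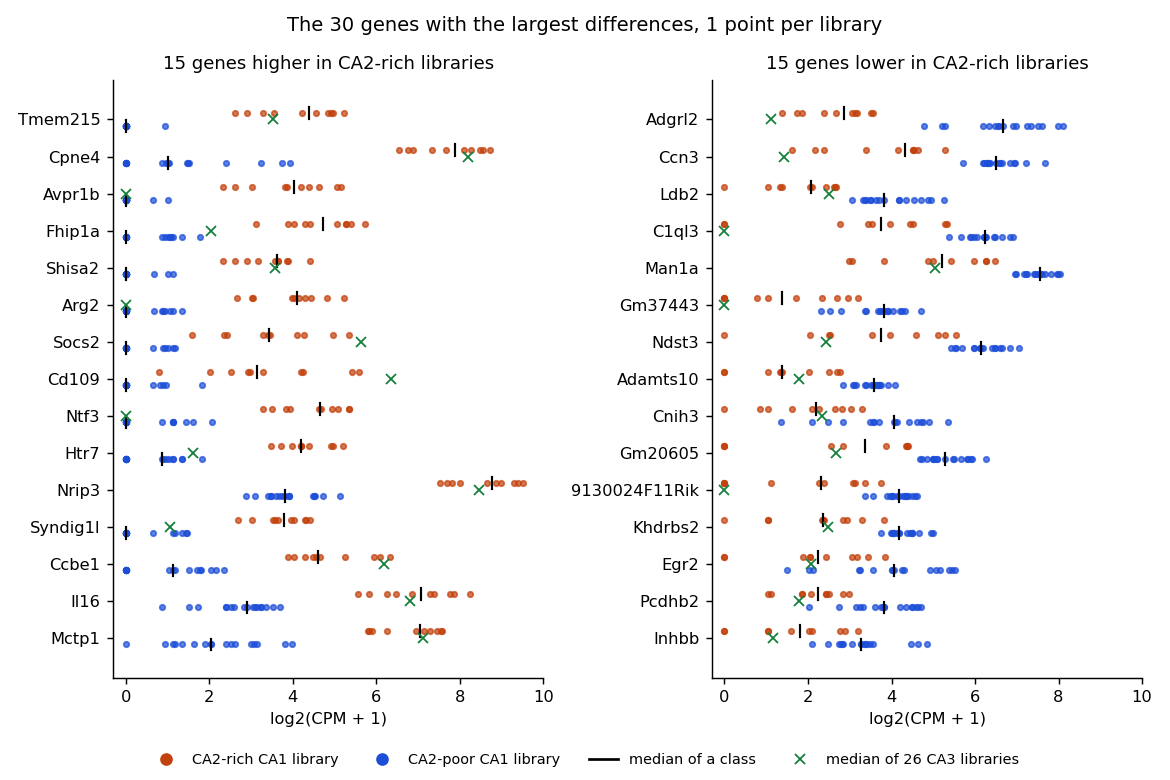
Level, as log2(CPM + 1), of the 15 higher (left) and 15 lower genes (right) with the largest LFC, with 1 point per CA1 library, a bar at the median of each class and a cross at the median of 26 CA3 libraries. The higher genes sit at or near 0 in most CA2-poor libraries except Nrip3, Il16 and Mctp1. The crosses fall within the range of the CA2-rich points for Tmem215, Cpne4, Shisa2, Nrip3, Ccbe1, Il16 and Mctp1 but at 0 for Avpr1b, Arg2 and Ntf3.

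Of 10 other genes tied to CA2 (not used for the classes), 9 were higher in CA2-rich libraries and the median LFC was 2.31. The count is no independent test, since these genes were measured in the libraries that were divided. Avpr1b and Ntf3 were also among the 15 highest genes above, and Avpr1b was tested only because of its level in CA2-rich libraries. Among all tested genes 13.6% were higher and 11% lower. Some of these CA2 genes, such as Acan, Vcan and Oxtr, are counted again among the net components and receptors below. Ptpn5, the striatum-enriched tyrosine phosphatase, had 177 to 583 CPM against 71.8 to 97.3 CPM (LFC 2.11 ± 0.16). Acan, the aggrecan core protein of perineuronal nets, had 8.23 to 117 CPM against 0 to 6.23 CPM (LFC 4.60 ± 0.42). Vcan, versican, had 29.9 to 75.4 CPM against 3.10 to 20.1 CPM (LFC 2.50 ± 0.21). Fgf2 was not called, at 0 to 37.0 CPM against 0 to 7.85 CPM (LFC 1.3 ± 0.59). Actn2 was called (LFC 1.43 ± 0.38) and was no longer so without mice 17-21, 16-272 and 15-336 (LFC 0.86). Without those mice 9 of the genes were tested, and 7 were higher (median LFC 1.83), beside 9.92% higher and 5.96% lower among all genes.

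Of 8 tested perineuronal net components, 4 were higher and 1 lower (median LFC 0.36), beside 13.6% higher and 11% lower among all genes. Beside Acan and Vcan, the link protein Hapln4 had 160 to 464 CPM against 52.6 to 150 CPM (LFC 1.60 ± 0.19), and Ncan, neurocan, had an LFC of 0.42 ± 0.08. Tnr, tenascin-R, was lower, at 93.7 to 310 CPM against 312 to 433 CPM (LFC -0.78 ± 0.12), with no overlap. Bcan, Hapln1 and Has3 were not called, with LFC of -0.06, 0.30 and -0.54.

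Of 12 tested receptors of neuropeptides, steroids and modulators, 5 were higher and 4 lower (median LFC 0.53), beside 13.6% higher and 11% lower among all genes. Oxtr, the oxytocin receptor, had 2.20 to 25.8 CPM against 0 to 5.66 CPM (LFC 3.32 ± 0.50). The adenosine A1 receptor Adora1, which restrains transmitter release, had 265 to 455 CPM against 180 to 279 CPM (LFC 0.75 ± 0.09). The corticosteroid receptors went apart, since Nr3c2, the mineralocorticoid receptor, was higher (487 to 858 CPM against 375 to 525 CPM, LFC 0.46 ± 0.07) and Nr3c1, the glucocorticoid receptor, lower (33.7 to 134 CPM against 122 to 205 CPM, LFC -0.88 ± 0.19). Cckbr, a cholecystokinin receptor, was higher (LFC 3.20 ± 0.42). The serotonin receptor Htr1a was lower, at 0 to 106 CPM against 112 to 186 CPM (LFC -1.46 ± 0.35), as were Chrm3 (-0.42 ± 0.09) and Grm3 (-0.98 ± 0.27).

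The AMPA receptor genes split into 4 higher and 5 lower of 12 (median LFC -0.10), beside 13.6% higher and 11% lower among all genes. The pore subunits Gria1 and Gria2 were lower (LFC -0.33 ± 0.06 and -0.45 ± 0.07), with 1210.1 to 2079.8 CPM of Gria1 against 1975 to 2715 CPM, and Gria4 was higher (LFC 0.58 ± 0.13). Among auxiliary proteins, Shisa9 had 11.3 to 48.8 CPM against 3.46 to 15.6 CPM (LFC 1.84 ± 0.17), Cnih2 an LFC of 0.36 ± 0.09, Cacng3 an LFC of -1.13 ± 0.24 and Cnih3 an LFC of -1.95 ± 0.40. The calls of Gria3 (LFC -0.17 ± 0.06) and Cacng7 (0.35 ± 0.13) were lost without mice 17-21, 16-272 and 15-336.

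Calcium handling genes also went both ways, with 6 higher and 5 lower of 17 (median LFC -0.11), beside 13.6% higher and 11% lower among all genes. With library totals in place of TMM 5 were higher and 8 lower, with Calm3, Camk2g and Atp2b4 newly called lower. Camk4, a calmodulin-dependent kinase of the nucleus, had 127 to 293 CPM against 58.8 to 96.7 CPM (LFC 1.50 ± 0.13), with no overlap. Camk2d (LFC 1.64 ± 0.24), Camk2a (0.34 ± 0.05) and the calcium pump Atp2b2 (0.34 ± 0.06) were higher. Atp2b1, another plasma membrane calcium pump, had 943 to 3424 CPM against 3579.8 to 4493 CPM (LFC -0.84 ± 0.16), and Nrgn, neurogranin, which binds calmodulin, was at 599.8 to 1682 CPM against 1345 to 2209 CPM (LFC -0.60 ± 0.12). Calb1, the calcium buffer calbindin, was lower too (0 to 74.9 CPM against 47.6 to 159 CPM, LFC -1.27 ± 0.38). Of 6 subunits of the mitochondrial calcium uniporter, 3 were higher, led by the pore protein Mcu at 45.9 to 139 CPM against 24.2 to 43.7 CPM (LFC 1.65 ± 0.16), and 1, Micu3, was lower (LFC -0.27 ± 0.10). Micu3 was not called with the log10 total count as a further term or without mice 17-21, 16-272 and 15-336.

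Of 14 HCN, TREK and A-type channel genes, 5 were higher and 4 lower (median LFC 0.30), beside 13.6% and 11% of all genes. Without mice 17-21, 16-272 and 15-336, 3 were higher and 2 lower, beside 9.92% and 5.96% of all genes. Kcnk2, the TREK-1 potassium channel, had 71.4 to 184 CPM against 32.4 to 83.8 CPM (LFC 1.16 ± 0.13), and Kcnd3, an A-type channel, had 29.1 to 85.5 CPM against 7.0 to 23.1 CPM (LFC 2.10 ± 0.20). Kcnd2, another A-type channel, had an LFC of -0.25 ± 0.07 and was not called without mice 17-21, 16-272 and 15-336 (LFC -0.12).

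Of 15 Eph receptors and ephrins, which guide axons through cell contact, 7 were lower and 5 higher (median LFC -0.41). Ephb3 had 1.16 to 25.6 CPM against 28.6 to 50.9 CPM (LFC -1.46 ± 0.21) and the ephrin Efnb2 4.69 to 34.2 CPM against 40.2 to 63.3 CPM (LFC -1.22 ± 0.22), neither with overlap. Epha5 (0.70 ± 0.12) and Epha4 (0.30 ± 0.06) were higher. Of 12 classical cadherins, 3 were higher (Cdh8, Cdh9 and Cdh13) and 2 lower (Cdh6 and Cdh10), close to the 13.6% higher and 11% lower among all genes, and with the log10 total count as a further term 1 was higher.

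Of 13 immediate early genes, which neurons switch on after activity, none was higher and 6 were lower (median LFC -0.69). Among all genes 13.6% were higher and 11% lower. Egr1 had 134 to 674 CPM in CA2-rich and 285 to 1044 CPM in CA2-poor libraries (LFC -0.97 ± 0.23), and Egr3 had 21.0 to 184 CPM and 157 to 294 CPM (LFC -1.08 ± 0.20). Junb, Egr2, Egr4 and Nr4a1 were the others. Fos and Arc were not called (LFC -0.28 ± 0.35 and -0.60 ± 0.23). With DESeq2, and with library totals, 8 were lower, Arc and Fosl2 among them. Without mice 17-21, 16-272 and 15-336, 3 stayed called (Junb, Egr1 and Egr3).

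The counts in this paragraph stand beside 13.6% higher and 11% lower among all genes. Of 7 tested mitochondrially encoded subunits of the respiratory chain, 6 were higher (median LFC 0.72). The largest was mt-Nd5 at 1229 to 2941 CPM against 738 to 1354 CPM (LFC 0.88 ± 0.12), and mt-Nd6 was not called (LFC 0.35 ± 0.13). Their shares overlapped between the classes only from 0.730 to 0.779% of the counts. Interneuron markers were higher in 5 of 8 (median LFC 0.69), among them Gad1 at 106 to 227 CPM against 63.1 to 110 CPM (LFC 0.83 ± 0.09), and Vip was at 0 to 13.4 CPM against 3.62 to 15.4 CPM (LFC -0.81 ± 0.32), not called here but called lower with DESeq2 and with library totals. Oligodendrocyte markers were higher in 5 of 7 (median LFC 0.71), among them Mobp (LFC 1.50 ± 0.24). No marker of astrocytes, microglia or vascular cells was called in either direction, with median LFC of 0.31, -0.07 and 0.77. The vascular median was no smaller than the interneuron one, so the lack of a call does not show equal levels. Of the 7 CA1 markers 6 were lower (median LFC -1.38), and Spink8 was higher (29.1 to 70.8 CPM against 13.9 to 58.9 CPM, LFC 0.65 ± 0.19). Of 6 tested CA3 markers 5 were higher (median LFC 4.04), and Cdh24 was not called (LFC -0.07 ± 0.24). Of 3 tested dentate markers Trpc6 was higher (LFC 0.98 ± 0.29), and of the choroid plexus list Kl, which neurons also express, was the one gene tested and was lower (LFC -0.99 ± 0.25). With the log10 total count as a further term, Trpc6, Fibcd1 and Cnp lost their call. Without mice 17-21 and 17-154, Trpc6 and Spink8 lost theirs, and 6 oligodendrocyte markers were called higher. Without mice 17-21, 16-272 and 15-336, 3 oligodendrocyte markers were called higher. No called gene of these lists turned its sign with DESeq2 or with library totals in place of TMM, and Cacng7, Hcn2, Kcnip3, Ppp3cb, Smdt1 and Cnp lost their call with the totals, as did Smdt1 with DESeq2.

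The CA3 and dentate libraries of the same mice did not enter the division, though they come from the same animals. In CA3 libraries the mean of the 7 CA2 markers was 2.63 ± 0.25 in mice with a CA2-rich CA1 library (SD, n = 8) and 2.79 ± 0.25 in mice with a CA2-poor one (SD, n = 17), and an exact permutation test of the difference of -0.17 gave p = 0.136. Leaving out the CA2-poor mouse 16-273 gave -0.20 with p = 0.0431 in the exact permutation test. Without Pcp4 the means were 2.35 ± 0.27 and 2.75 ± 0.27, a difference of -0.40 and thus lower in the mice whose CA1 library was CA2-rich, with p = 0.00284 in the exact permutation test. Necab2 was at 0.631 to 2.83 CPM in the CA3 libraries of the former mice and 0.782 to 16.6 CPM in those of the latter (medians 1.94 and 7.0), and Amigo2 at 3.45 to 9.95 CPM and 3.20 to 27.4 CPM (medians 5.28 and 11.4). Pcp4 went the other way, with medians of 20.5 and 8.79 CPM. In dentate libraries the mean was 3.52 ± 0.16 (SD, n = 10) and 3.41 ± 0.24 (SD, n = 17), with p = 0.220 in a permutation test. In neither population did the marker means come near the 5.68 to 7.78 of the CA2-rich CA1 libraries.

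**Figure D4:**
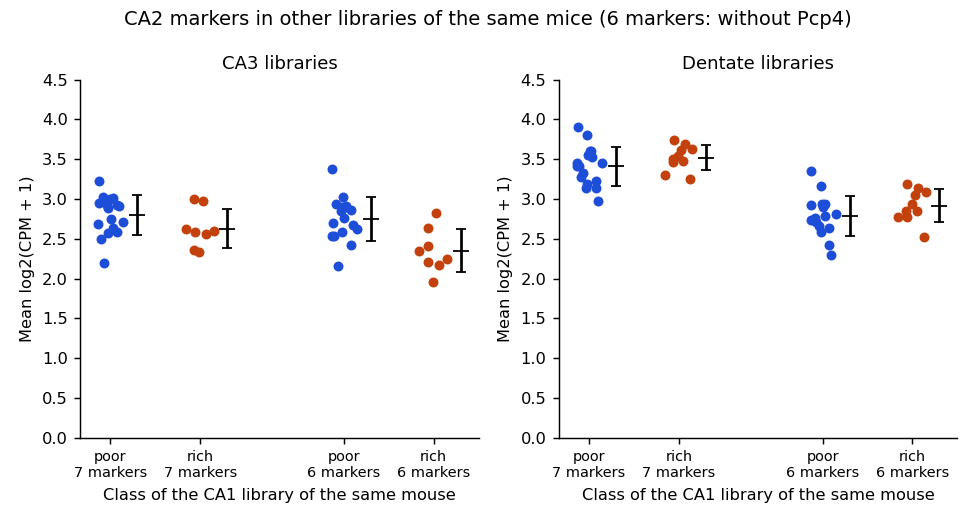
Mean log2(CPM + 1) of 7 CA2 markers, and of the markers without Pcp4, in the CA3 (left) and dentate libraries (right) of mice whose CA1 library was CA2-poor or CA2-rich, with 1 point per library and the mean ± SD beside the points. In CA3 libraries the means without Pcp4 are 2.75 and 2.35, and in dentate libraries the means of 7 markers are 3.41 and 3.52.

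Across all genes, few genes differed between the CA3 libraries by the class of the mouse's CA1 library. Of 16551 genes tested with edgeR's quasi-likelihood test, 51 were higher (0.308%) and 50 lower (0.302%) in mice with a CA2-rich CA1 library at a Benjamini-Hochberg adjusted p under 0.05, or 0.61% in all. The 3 higher genes with the smallest p were Hipk2, a kinase, Kcnb2, a potassium channel, and Notch2, a receptor of the Notch pathway. Hipk2 had 79.7 to 99.9 CPM against 43.2 to 79.7 CPM (LFC 0.51 ± 0.09, adjusted p = 0.000309). Kcnb2 had 99.7 to 146 CPM against 58.7 to 116 CPM (LFC 0.46 ± 0.08, adjusted p = 0.000876), and Notch2 had 19.7 to 58.7 CPM against 12.6 to 32.2 CPM (LFC 0.75 ± 0.13, adjusted p = 0.00106).

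The 3 lower genes were Sulf2, an extracellular sulfatase, Camkv, a pseudokinase of synapses, and Pxdn, a peroxidase of the matrix. Sulf2 had 112 to 183 CPM against 155 to 243 CPM (LFC -0.49 ± 0.07, adjusted p = 2.8e-05), Camkv 370 to 459 CPM against 365 to 636 CPM (LFC -0.36 ± 0.06, adjusted p = 0.000112) and Pxdn 77.0 to 99.9 CPM against 101 to 162 CPM (LFC -0.42 ± 0.08, adjusted p = 0.00106). Of the lists, Ptpn5, Atp2b2, Prox1 and Fos were higher in these CA3 libraries and Oxtr, Nrgn and Atp2b3 lower. Prox1, a dentate granule cell marker, reached 52.5 CPM in 1 of these libraries, and leaving out 1 mouse raised its adjusted p to as much as 0.760. Oxtr had 1.32 to 8.20 CPM against 1.56 to 20.2 CPM (LFC -1.52 ± 0.37, adjusted p = 0.0408). Without mice 17-21 and 17-154, 9 genes were higher and 5 lower, and Notch2, Pxdn, Oxtr, Prox1, Fos, Atp2b2 and Atp2b3 were no longer called.

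Leaving out any 1 of the CA2-rich mice 17-21, 16-90, 15-199 and 15-334 or the CA2-poor mouse 14-125 brought the count of 101 genes in CA3 libraries to 53 to 63. In dentate libraries no gene of 16405 passed (0%) in edgeR's test, with 873 at an unadjusted p under 0.05, and DESeq2 gave none, with 716. Leaving out mouse 15-36 gave 3.

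Ts and 2N were compared over all 27 CA1 libraries of both diets, without technical covariates, which is not the set of libraries or the model of the study's own comparison. With the class as a term, 42 genes were higher (0.259%) and 6 lower (0.037%) in Ts of 16218, or 0.296% in all, by edgeR's quasi-likelihood test with Benjamini-Hochberg adjustment. Without it 30 were higher (0.185%) and none lower, and all 30 were among the 48. Of 63 tested Mmu16 genes that the study lists as triplicated, 28 were called with the class and 21 without. App, which encodes the amyloid precursor protein, had an LFC of 0.51 ± 0.06 with the class, and Dyrk1a, a kinase, one of 0.51 ± 0.08. In the 17 CA2-poor libraries alone 59 genes were called, 29 of them among the Mmu16 genes, and in the 10 CA2-rich libraries alone none was, with 329 at an unadjusted p under 0.05 and no other tool run on them. The median LFC of the Mmu16 genes was 0.58 in the first and 0.39 in the second, where 60 were tested. The second set holds the libraries of mouse 17-154, labelled 2N with an Mmu16 mean of 5.48, and mouse 16-272, labelled Ts with 5.12, and was not fitted without them. Over all CA1 libraries but that of mouse 17-154, with the class as a term, 34 Mmu16 genes were called.

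The difference of the genotype effect between the classes was itself tested in 1 fit, and no gene passed (644 at an unadjusted p under 0.05, and none by DESeq2). For diet with the class as a term no gene passed in edgeR's test or in DESeq2 (576 at an unadjusted p under 0.05 in edgeR), and no gene differed in its class effect between the diets (633 at an unadjusted p under 0.05, and none by DESeq2).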

How the data were processed

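The deposited files hold expected counts per gene, which the authors made by trimming reads with Trimmomatic, aligning to GRCm39 with STAR and quantifying with RSEM, without normalization. RSEM divides reads between similar genes, so counts of paralogs are uncertain. All 81 matrix columns equalled the files per library. A symbol was found for 56310 of 57010 gene identifiers. The TPM values deposited beside them, which RSEM gave the authors, were read for context only.

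CPM used column totals. For tests, the expected counts were rounded, genes over 0.1 CPM in at least 10 libraries were kept (0.0645 to 0.192 of a count in CA1 libraries), and edgeR 4.0.16 (R 4.3.3) was run with TMM, estimateDisp, robust glmQLFit and glmQLFTest. The model held class, genotype and diet, with Benjamini-Hochberg adjustment across the tested genes. The study's technical covariates were not used here. Single values were compared by two-sided exact permutation tests, or 100000 resamples where both groups had 10 or more. Genes named are the 15 higher and 15 lower with the largest LFC among those with an adjusted p under 0.05 and a mean of at least 10 CPM in the higher class, genes of the lists, and, in CA3 and dentate libraries, the 3 higher and 3 lower with the smallest p. The classes, gene lists and tests were chosen with earlier results of these data known. Alternatives were DESeq2 1.42.0, limma-voom (limma 3.58.1), totals, no filter, filterByExpr at a count of 10, other covariates, thresholds of 4.0 and 5.0, a pseudocount of 0.5 in place of 1, each diet or genotype alone, and leaving out libraries. Leaving out mice 17-21, 16-272 and 15-336 together was chosen after seeing the data. The fit was also run on simulated counts with the same change in every CA2-rich library, unlike the graded real ones. Its outcome is not reported here and is no support for the calls. No pair of libraries of a class was as close as sampling noise (the lowest chi-square per degree of freedom was 1.88). Each library is a separate mouse. Values of some single genes of the lists are not reported here.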

Additional observations from a re-analysis of the deposited data

Results flagged for a closer look

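In the study's groups of CA1 libraries, and among the 10 CA2-rich ones, 39 sets of values, some from the CA3 and dentate libraries of the same mice, were screened for a library far from the rest by Dixon's criterion, which chance meets in about 1 set of 20, and 11 values met it. Of these, 10 belonged to CA2-rich libraries. The sets of the study's groups hold both classes, and the CA2 marker mean made the classes while the CA1 and CA3 marker means follow them, so the number of such values and their place in CA2-rich libraries are in part fixed by the division and are not set against chance. In 2N mice on the normal diet, the CA1 marker mean of mouse 17-21 was 2.28 and the next lowest 6.96, and the Mmu16 mean of mouse 17-154 was 5.48 and the next highest 4.98. In 2N mice on the supplemented diet, the CA1 marker mean of mouse 15-336 was 4.39 and the next lowest 6.40.

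Mouse 16-357 had the only CA2-rich library among 5 Ts mice on the normal diet and stood apart in each of 4 values. Its CA2 marker mean, which restates the division, was 7.18 against at most 2.21, its CA1 marker mean 6.16 against at least 7.39, its CA3 marker mean 4.58 against at most 2.32, and its mitochondrially encoded share 0.969% against at most 0.641%. Among Ts mice on the supplemented diet, mouse 16-272 had a CA1 marker mean of 2.34 (next 5.76) and an Mmu16 mean of 5.12 (next 5.40), and mouse 15-199 had a mitochondrially encoded share of 1.26% (next 0.811%). The value of a CA2-poor mouse was the CA2 marker mean in the CA3 library of mouse 14-90, at 3.01, with the next at 2.72.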

How the results depend on the processing

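No paired analysis was possible because the CA2-rich and CA2-poor CA1 libraries come from different mice. Among refits of the 30 named genes in which the gene was tested, 553 kept the call, 7 lost it and none turned the direction. Refits in which a gene did not pass the filter are not counted. Tmem215 and Avpr1b, at 0 in most CA2-poor libraries, were not tested in any single diet or genotype or without mice 17-21, 16-272 and 15-336. The 30 genes were chosen as the largest of this contrast, the refits reuse its libraries, and some settings gave the same classes. Keeping the call is therefore no independent support. Egr2 lost its call in each diet, in each genotype and without mice 17-21, 16-272 and 15-336, Cnih3 on the normal diet and Pcdhb2 in Ts alone. The count of 3987 genes fell to 2511 without those 3 mice, and to 1756 on the normal diet, 2252 on the supplemented diet, 1846 in 2N and 2107 in Ts, which hold fewer libraries, and leaving out 1 library gave 3375 (without mouse 17-21) to 4186. The 101 genes in CA3 libraries became 219 with no filter and 14 without mice 17-21 and 17-154, and 53 to 140 on leaving out 1 mouse. The 0 genes in dentate libraries became 20 with no filter, 1 with the score as a number and 0 to 3 on leaving out 1 mouse. The 48 genes of the genotype effect became 150 with no filter, 30 without the class and 0 in CA2-rich libraries alone, and 39 to 62 on leaving out 1 library. The 0 genes for diet became 51 with no filter, and both interactions 2. The difference in CA2 markers between CA3 libraries was -0.40 without Pcp4 and past the threshold, and -0.22 to -0.12 on leaving out 1 mouse, that in dentate libraries 0.08 to 0.14, and that by diet 0.45 to 1.14. The difference by genotype turned from -0.28 to 0.24 without mice 17-21 and 17-154 and to 0.035 without mouse 17-21 (lowest -0.56), and the odds ratio of class and genotype from 0.889 to 1.48. Without mice 17-21 and 17-154 the odds ratio of class and diet rose from 2.07 to 6.22 (Fisher's exact test, p = 0.182). In that setting 7 CA2-rich libraries were ChP and 1 was ChN. The difference in log10 total count was 0.0643 to 0.103 on leaving out 1 library. The causes were not tested. Depth limits genes under about 1.56 to 4.65 CPM.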
